A study of Mus musculus with 6 samples.

Results

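Neurons splice their transcripts differently from the progenitors they come from, and a small number of RNA-binding protein families carry out much of that difference. The genes described here are 10 members of 4 such families: Rbfox1, Rbfox2 and Rbfox3, Elavl2, Elavl3 and Elavl4, Celf4 and Celf5, and Khdrbs2 and Khdrbs3. They were taken from the deposited table by their gene symbols, and all 10 were found among its 55416 genes, 1 row each. RNA was measured at the embryonic stage E13.5 in the mouse ganglionic eminences, the ventral swellings of the developing forebrain that produce striatal neurons and cortical interneurons. The 2 groups were 3 wild-type libraries, which the labels describe as littermate controls, and 3 libraries with a Dlx1/Dlx2 double knockout, a loss of a pair of neighbouring homeodomain transcription factor genes. The labels do not say which libraries share a litter. The labels do not give the part of the eminence, the strain, the allele design or the sex, nor do they say whether a library came from 1 embryo or from pooled tissue, and p-values measure the spread between these libraries.

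RBFOX proteins bind the RNA word GCAUG and promote or block inclusion of nearby exons. RBFOX3 is the antigen NeuN, a standard marker of differentiated neurons. The neuronal ELAVL proteins (also called Hu proteins) bind U-rich RNA, and besides splicing they act on transcript stability and translation. CELF proteins bind GU-rich RNA, and KHDRBS2 and KHDRBS3 are relatives of the ubiquitous protein SAM68 that act on alternative exons of synaptic genes, among them the neurexins. The table holds 1 count per gene, so it shows the level of the regulators and not the splicing of their targets.

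Of the 10 genes, Elavl3 and Khdrbs2 passed the test between genotypes. Each has 1 window in the RefSeq promoter table (build GRCm38.p6), and the 250 bases before the annotated start are shown for them because they are the genes called here. The Elavl3 window is chr9:22052024-22052273 on the minus strand and the Khdrbs2 window is chr1:32172472-32172721 on the plus strand, each written 5′ to 3′ along its gene. Capitals mark matches, on either strand, to 4 motifs. These were TAATTA, a form of homeodomain site, CAGCTG, a form of E-box, the GC box GGGCGG, read as CCGCCC on the opposite strand, and the TATA box TATAAA. Other forms of these sites were not marked.
Elavl3: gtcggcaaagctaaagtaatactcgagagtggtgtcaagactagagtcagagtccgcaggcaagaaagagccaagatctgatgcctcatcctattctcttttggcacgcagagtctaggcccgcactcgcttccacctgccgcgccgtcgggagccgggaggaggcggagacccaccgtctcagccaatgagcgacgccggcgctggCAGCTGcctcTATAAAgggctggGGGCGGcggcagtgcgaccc
Khdrbs2: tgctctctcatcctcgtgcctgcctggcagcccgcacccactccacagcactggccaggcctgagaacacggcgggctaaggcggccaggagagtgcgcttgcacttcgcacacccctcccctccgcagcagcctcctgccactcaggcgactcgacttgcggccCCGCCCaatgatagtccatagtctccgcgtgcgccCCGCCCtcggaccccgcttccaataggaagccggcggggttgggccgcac
The Elavl3 window held an E-box, a TATA box and a GC box, whose first bases lay 43, 33 and 20 bases before the start. In the Khdrbs2 window there were 2 matches to GGGCGG, with first bases 85 and 50 bases before it. None of these matches overlapped. TAATTA was in neither window. Over all 32851 windows of the table, CAGCTG was found in 13%, TATAAA in 12.4%, GGGCGG in 32.7% and TAATTA in 4.84%. RefSeq windows were found for 7 of the 10 genes, 20 windows in all, and TAATTA was in 2 of these, both upstream of Elavl4 and overlapping each other. These matches describe the letters of the windows only.

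The libraries held 56618090 to 70114173 counts, and each of the 10 genes had between 1023 and 42186 reads in every library, so all 10 passed the filter on low counts. The targeted gene Dlx1 averaged 438.6 ± 6.12 CPM in wild-type and 81.5 ± 10.8 CPM in double knockout libraries (CPM, reads of a gene relative to the TMM-scaled library total; mean ± SD, n = 3). Dlx2 averaged 295.5 ± 16.1 and 8.68 ± 1.99 CPM, and no library went against its label. Y-linked transcripts were present in wild-type replicate 1 and double knockout replicates 2 and 3, at 206.5 to 213.9 CPM summed, against at most 0.168 CPM in the other libraries. Markers of inhibitory neurons, the main neurons of this tissue, were present, at 1288 to 1305 CPM summed over 10 genes in the wild type. Markers of cortical excitatory neurons were also present, at 1014 to 1027 CPM over 9 genes. No marker gene on any list was at 0 in any library.

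Most of the regulators had lower means in the double knockout. Elavl3 and Khdrbs2 fell, to 83.4% and 77.1% of their wild-type means. The other 8 did not pass the test: 7 had lower means and Khdrbs3 had a higher one. With edgeR's quasi-likelihood test and an adjusted p below 0.05 as the rule for a call, 2 of the 10 were called, both lower, and 0 higher. Of all 23628 tested genes 2.68% were called, 1.34% lower and 1.34% higher. At an unadjusted p under 0.05 edgeR gave 7 of the 10 lower and 1 higher, where 6.81% and 6.52% of all tested genes were lower and higher by that rule. DESeq2 called 4 of the 10 lower and 0 higher, where it called 2.41% and 2.51% of all tested genes. The median log2 fold change of the 10 genes was -0.18, beside -0.00161 for all tested genes. In 7 of the 10 every double knockout library was below every wild-type library, and in 1 every one was above, where 10.2% and 9.3% of tested genes showed these patterns, 19.5% in all. The 10 genes were chosen with earlier results of these data known and share the same 6 libraries, so these counts are a description. Summed over the 10 genes, wild-type libraries held 2496 to 2595 CPM and double knockout libraries 2131 to 2274 CPM.

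**Figure D1:**
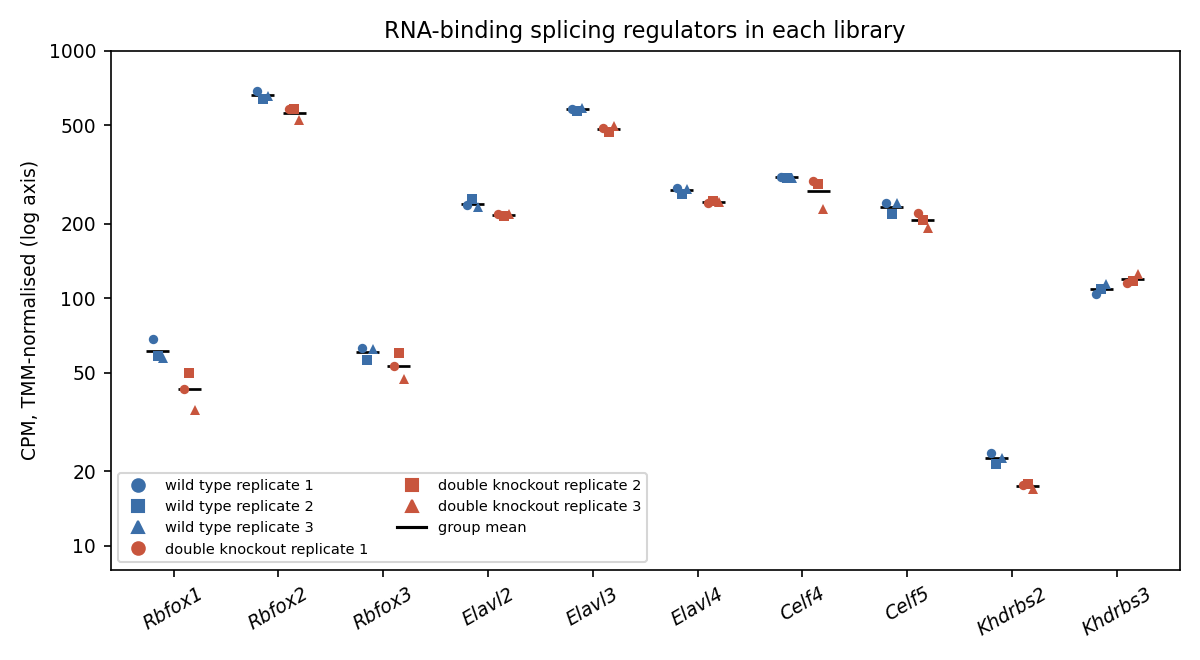
TMM-normalised CPM (log axis) of the 10 regulators in each of the 6 libraries, with wild type in blue, double knockout in red, a marker shape per replicate and a bar at each group mean. Elavl3, at 483 against 579 CPM, and Khdrbs2, at 17.5 against 22.6 CPM, are the genes that passed the test, and Khdrbs3 is the gene with a higher double knockout mean.

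Levels were compared between genes as CPM per kilobase of exon, with exon lengths from the GENCODE M21 annotation. In the wild type Elavl3 (84.1 ± 1.3 CPM per kilobase, SD, n = 3) and Rbfox2 (81.2 ± 3.06) were highest, and their libraries overlapped. Elavl4 followed at 50.7 ± 1.58. Celf4 (35.8 ± 0.114) and Celf5 (35.2 ± 1.95) overlapped, as did Khdrbs3 (29.7 ± 1.38) and Elavl2 (29.03 ± 1.22). Rbfox1 (13.9 ± 1.38), Rbfox3 (10.4 ± 0.599) and Khdrbs2 (2.20 ± 0.111) were lowest and did not overlap one another. Thus the neuronal nuclear marker Rbfox3 was at a lower level per length than either Rbfox1 or Rbfox2 at this stage. Before division by length, Rbfox1 (61.3 ± 6.07 CPM) and Rbfox3 (60.5 ± 3.49 CPM) overlapped in the wild type. Their order therefore rests on the exon lengths used, 4.4 and 5.818 kilobases. In the double knockout the order was the same except that Khdrbs3 (32.6 ± 1.54) stood above Celf4 (31.7 ± 4.3) and Celf5 (31.05 ± 2.15), with overlap between Khdrbs3 and Celf4 and between Celf4 and Celf5, and Rbfox1 (9.73 ± 1.67) and Rbfox3 (9.18 ± 1.08) now overlapped.

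All 3 Elavl genes had lower means in the double knockout, and Elavl3 (ENSMUSG00000003410, encoding HuC) was the one that passed the test. Wild-type replicates 1, 2 and 3 were at 581, 569.7 and 588 CPM, and double knockout replicates 1, 2 and 3 at 486, 469 and 495 CPM. The groups did not overlap, and both were tight. Elavl3 fell by 0.26 on the log2 scale (SE 0.0519, 95% interval -0.38 to -0.14; edgeR adjusted p 0.037). The call was kept without double knockout replicate 3 (adjusted p 0.0302) but lost without any 1 of the other 5 libraries, where the edgeR adjusted p was 0.0942 to 0.175, and with Y-linked expression as a covariate, at 0.0998. The log2 fold change stayed between -0.27 and -0.23 over all 14 alternative settings, of which 7 kept the call. Exons of Elavl3 overlap those of the gene model Gm49318 on the same strand in GENCODE M21, so the counts of Elavl3 are uncertain.

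Elavl2 (ENSMUSG00000008489, encoding HuB) was at 237, 253 and 234 CPM in wild-type replicates and 219, 214 and 219 CPM in double knockout replicates. Elavl4 (ENSMUSG00000028546, encoding HuD) was at 279, 263 and 277 CPM and at 242, 247 and 244 CPM. For both genes the double knockout libraries lay below all wild-type libraries and close together. Neither passed the test. For Elavl2 the log2 fold change was -0.15 (95% interval -0.26 to -0.04, edgeR adjusted p 0.212). That of Elavl4 was -0.16 (95% interval -0.27 to -0.05, edgeR adjusted p 0.157).

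Of the reads of these 3 Elavl genes, Elavl3 took 52.5% to 53.5% in wild-type libraries and 50.4% to 51.7% in double knockout libraries. The difference was -1.83 percentage points, without overlap (exact two-sided permutation test p = 0.1, the smallest that 3 libraries against 3 can give). Elavl4 took 24.3% to 25.4% and 25.5% to 26.5%, also without overlap, and Elavl2 took 21.3% to 23.3% and 22.9% to 23.1%, which overlapped. The balance within the family thus differed by under 2 percentage points for each gene.

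The largest log2 fold change of the 10 was that of Rbfox1 (ENSMUSG00000008658), which did not pass the test. It was at 68.3, 58.5 and 57.2 CPM in the wild type and at 42.98, 50.05 and 35.4 CPM in the double knockout. The groups did not overlap, and double knockout replicate 3 was lowest. The log2 fold change was -0.52 (SE 0.123, 95% interval -0.80 to -0.24), with an edgeR adjusted p of 0.0732. It was called by DESeq2 (adjusted p 0.00188), without a filter on low counts (edgeR adjusted p 0.00986) and in the edgeR fit without double knockout replicate 2 (adjusted p 0.0335). The values of its replicates were the most spread of the 10 genes in relation to their mean.

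Rbfox2 (ENSMUSG00000033565), which is not restricted to neurons, had the highest read count of the 10. It was at 688, 639 and 657 CPM in the wild type and at 579, 579.8 and 526 CPM in the double knockout, with no overlap. Its log2 fold change was -0.24 (SE 0.0626, 95% interval -0.38 to -0.09), with an adjusted p of 0.111 in edgeR and 0.0239 in DESeq2. Rbfox3 (ENSMUSG00000025576) was at 62.7, 56.5 and 62.4 CPM and at 53.1, 59.9 and 47.3 CPM, and its groups overlapped. Its log2 fold change was -0.18 (95% interval -0.38 to 0.02, edgeR adjusted p 0.434), and -0.09 without double knockout replicate 3.

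Within the Rbfox family, Rbfox1 supplied 7.36% to 8.34% of wild-type reads and 5.81% to 7.26% of double knockout reads. The difference was -1.34 percentage points, with no overlap (exact two-sided permutation test p = 0.1, the smallest possible). The shares of Rbfox2 and Rbfox3 overlapped between groups, with exact permutation p of 0.3 and 0.4. Rbfox2 supplied 84.0% to 84.7% and 84.06% to 86.4% of the family's reads.

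The Celf genes showed no call. Celf4 (ENSMUSG00000024268) was at 309, 307 and 307 CPM in the wild type and at 298, 289 and 229.8 CPM in the double knockout. The groups did not overlap, but most of the difference came from double knockout replicate 3. The log2 fold change was -0.18 (95% interval -0.39 to 0.03, edgeR adjusted p 0.475), and -0.06 without that library. Celf5 (ENSMUSG00000034818) was at 243, 219.6 and 241 CPM and at 221, 208 and 192 CPM, with overlap. Its log2 fold change was -0.18 (95% interval -0.33 to -0.03, edgeR adjusted p 0.271). Celf4 took 56.8% ± 1.33 of the reads of the pair in the wild type and 56.7% ± 1.99 in the double knockout (SD, n = 3; exact permutation p = 0.9, difference -0.10 percentage points). Exons of Celf5 overlap those of Gm16105 on the opposite strand over 543 bases, and the sources used here do not say whether counting used strand. Gm16105 itself was at 1.29 ± 0.208 and 1.09 ± 0.164 CPM.

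Of the Khdrbs pair, 1 gene fell and the other did not pass the test. Khdrbs2 (ENSMUSG00000026058), the least expressed of the 10, was at 23.8, 21.5 and 22.7 CPM in the wild type and at 17.7, 17.7 and 17.0 CPM in the double knockout. The groups did not overlap. It fell by 0.37 on the log2 scale (SE 0.0715, 95% interval -0.54 to -0.21; edgeR adjusted p 0.0314). The call was lost in all 6 fits that left out 1 library, wild-type and double knockout alike (edgeR adjusted p 0.0575 to 0.148), with total count scaling (0.0507) and with the Y-linked covariate (0.0687). The log2 fold change stayed between -0.41 and -0.34 in the 14 alternatives, of which 5 kept the call.

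Khdrbs3 (ENSMUSG00000022332) was at 104, 109 and 114 CPM in the wild type and at 115, 117 and 126 CPM in the double knockout. Each double knockout library was above each wild-type library, though the nearest differed little. Its log2 fold change was 0.13 (SE 0.055, 95% interval 0.01 to 0.26), and it did not pass the test, with an edgeR adjusted p of 0.342. The share of Khdrbs2 in the reads of the pair was 18.6%, 16.5% and 16.6% in the wild type and 13.3%, 13.2% and 11.9% in the double knockout. The difference was -4.45 percentage points, with no overlap between groups (exact two-sided permutation test p = 0.1, the smallest possible). In reads this was the largest difference in share among the 10 genes, and leaving out any 1 library moved it by less than the spread between replicates. Per exon length it was -1.94 percentage points, and that of Rbfox1, at -2.17, was larger. Of the 10 share tests, 5 gave the smallest possible p, those of Rbfox1, Elavl3, Elavl4, Khdrbs2 and Khdrbs3. Shares within a family add up to the whole, so these tests are not independent, and those of the Khdrbs pair are complements. How often other gene families give this p was not computed.

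**Figure D2:**
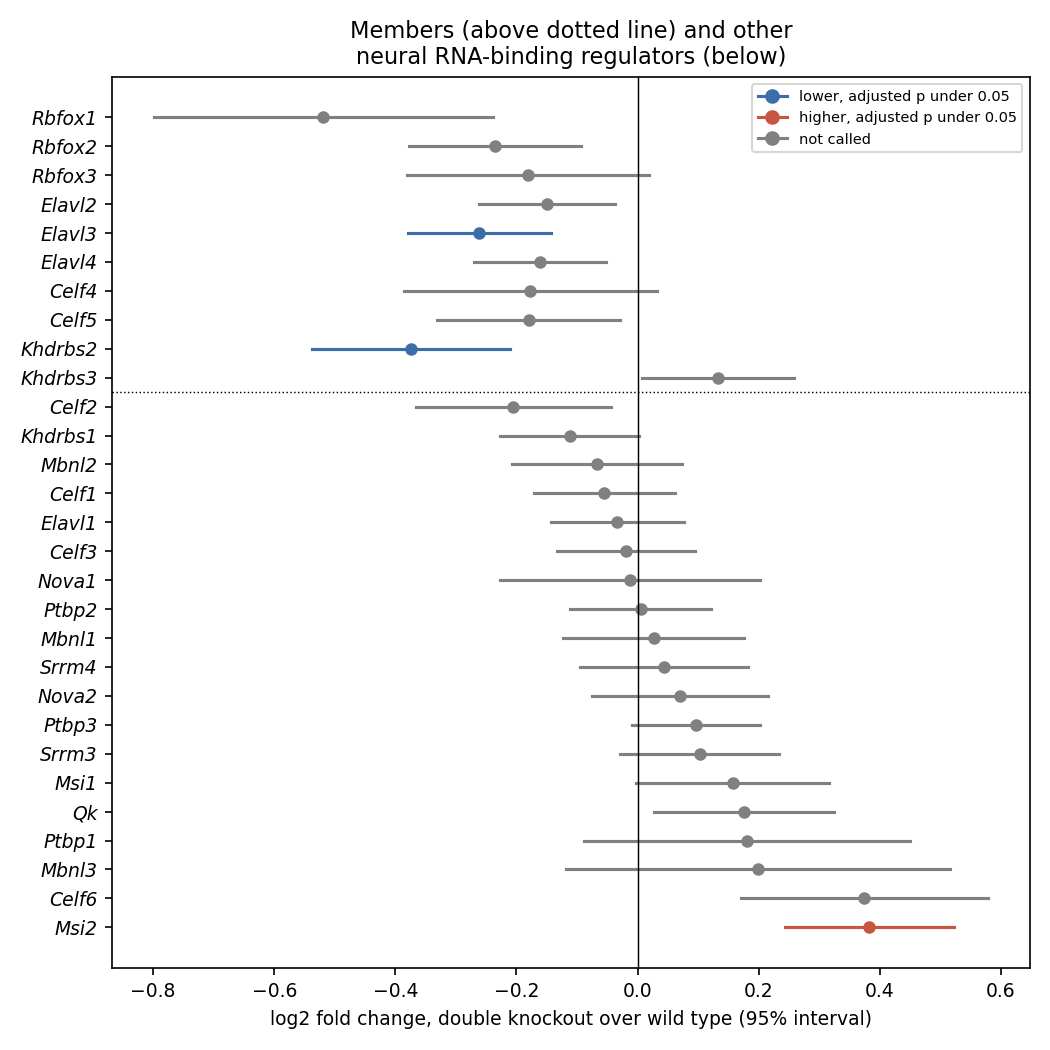
Log2 fold change of double knockout over wild type with its 95% interval for the 10 regulators (above the dotted line) and 19 other neural RNA-binding regulators ordered by value (below). Elavl3 and Khdrbs2 were called lower (blue) and Msi2 higher (red), and grey points were not called.

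Among 19 other RNA-binding regulators of neural cells, edgeR called 1 higher, Msi2, and 0 lower. DESeq2 called 2 higher and 0 lower, and at an unadjusted p under 0.05 edgeR gave 3 higher and 1 lower. Their median log2 fold change was 0.04. Msi2, a Musashi protein of neural progenitors, rose from 413 ± 13.2 to 538 ± 30.8 CPM (SD, n = 3), a log2 fold change of 0.38 (95% interval 0.24 to 0.52, edgeR adjusted p 0.014). Relatives of the Elavl, Khdrbs and Celf families expressed beyond neurons were not called by edgeR. Elavl1, which encodes HuR, had a log2 fold change of -0.03 (95% interval -0.14 to 0.08). It was -0.11 for Khdrbs1, which encodes SAM68, and -0.20 for Celf2 (95% interval -0.37 to -0.04, edgeR adjusted p 0.235). In 3 of the 19, Khdrbs1 and Celf2 among them, every double knockout library was below every wild-type library. In 6 every one was above, where 10.2% and 9.3% of all tested genes were below and above in this way. Celf6, a neural member of the CELF family, had a log2 fold change of 0.37 and an edgeR adjusted p of 0.0761.

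The regulators of the switch between progenitor and neuronal splicing were not called. Ptbp1, a repressor of neuronal exons in progenitors, was at 124 ± 10.7 and 141 ± 25.1 CPM, with a log2 fold change of 0.18 (95% interval -0.09 to 0.45). Its paralogue Ptbp2 was at 394 ± 8.68 and 395 ± 9.93 CPM, with a log2 fold change of 0.01 (95% interval -0.11 to 0.12). Srrm4, which promotes inclusion of neuronal microexons, had a log2 fold change of 0.04 (95% interval -0.10 to 0.18). The neuronal splicing factor genes Nova1 and Nova2 had log2 fold changes of -0.01 (95% interval -0.23 to 0.20) and 0.07 (95% interval -0.08 to 0.22). Opposite-strand genes overlap exons of Elavl1, Celf2, Nova2, Ptbp1 and Srrm4 in GENCODE M21, and a same-strand gene overlaps Nova1, so their counts are uncertain.

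Of 12 genes expressed by neurons in general, edgeR called 1 lower and 0 higher. DESeq2 and limma-voom each called 3 lower and 0 higher, where limma-voom called 314 and 301 of all 23628 tested genes. At an unadjusted p under 0.05 edgeR gave 4 lower and 0 higher, and in 8 of the 12 the groups overlapped. The gene called by edgeR was Snap25, a component of the synaptic vesicle fusion machinery, which fell from 61.5 ± 2.18 to 48.02 ± 4.44 CPM (log2 fold change -0.36, edgeR adjusted p 0.0416). The median log2 fold change of the 12 was -0.16, near the -0.18 of the 10 regulators. Their summed level was 7304 to 8081 CPM in wild-type libraries, 7235 and 7021 CPM in double knockout replicates 1 and 2, and 5959 CPM in double knockout replicate 3. In bulk tissue fewer neurons and less RNA per neuron cannot be told apart.

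Levels of the regulators were also set against the summed reads of the 12 pan-neuronal genes of the same library, a measure added after the data had been seen. It does not tell fewer neurons from less RNA per neuron, because the genes of the list may themselves change per neuron. Their log2 fold changes ran from -0.37 to 0.16, so the ratio also carries their differences. In this measure 7 of the 10 genes overlapped between groups, Elavl3 among them. The share of all tested genes that do not overlap in it was not computed. Elavl3 was at 7.18%, 7.80% and 7.64% of the pan-neuronal reads in the wild type and at 6.72%, 6.68% and 8.30% in the double knockout, so replicates 1 and 2 were below all wild-type libraries and replicate 3 above them. Rbfox1 was at 0.845%, 0.800% and 0.743% and at 0.594%, 0.713% and 0.593%, without overlap. Khdrbs2 was at 0.294%, 0.294% and 0.295% and at 0.244%, 0.253% and 0.285%, also without overlap.

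Khdrbs3 was the gene that was higher against the pan-neuronal reads. It was at 1.28%, 1.49% and 1.48% in the wild type and at 1.59%, 1.67% and 2.11% in the double knockout, without overlap. On the log2 scale the ratio differed by -0.33 for Rbfox1, -0.18 for Khdrbs2 and 0.34 for Khdrbs3, each with an exact two-sided permutation p of 0.1, the smallest possible. The other 7 genes differed by -0.06 to 0.05, with p of 0.5 to 0.9 in the same exact test, so 3 of 10 tests gave the smallest p. Adjusted over the 10 tests, the exact permutation p of those 3 genes was 0.333. Dcx and Map2 supplied 25.1% and 23.0% of the wild-type sum of the list. With those left out, with the mean of log2 values over the list or with any 1 library left out, the range was -0.42 to -0.29 for Rbfox1, -0.24 to -0.13 for Khdrbs2 and 0.20 to 0.41 for Khdrbs3.

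**Figure D3:**
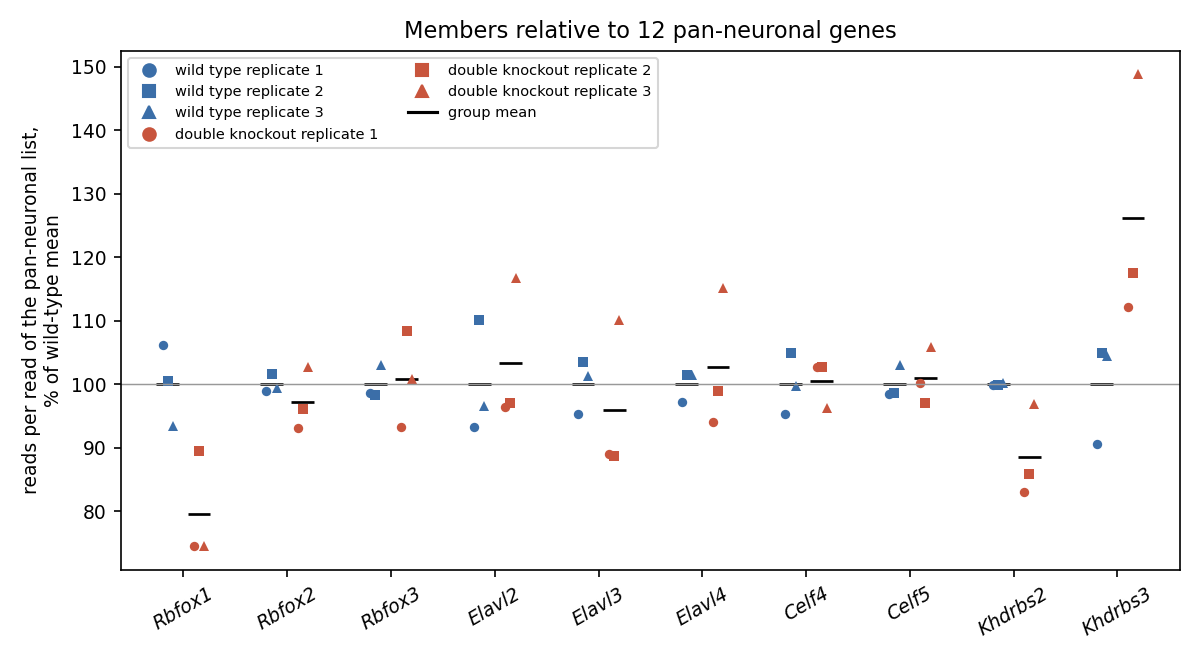
Reads of each regulator per read of the 12 pan-neuronal genes in the same library, as a percentage of the wild-type mean, with a marker per library and a bar at each group mean. Rbfox1 and Khdrbs2 lie below the wild-type libraries and Khdrbs3 above them (112% to 149%), while the other 7 overlap.

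Other cell markers moved with genotype beside the regulators. Of 10 inhibitory neuron genes, 9 were called lower, and the list summed to 1288 to 1305 CPM in wild-type and 471 to 551 CPM in double knockout libraries. Dlx5, Gad2, Dlx6 and Gad1, the transcription factor and GABA synthesis genes with the smallest adjusted p, had log2 fold changes of -2.93, -1.38, -2.55 and -1.47. Of 9 excitatory neuron genes, Neurod2 was the 1 that edgeR called (log2 fold change -0.53), and DESeq2 called 4 lower. At an unadjusted p under 0.05 edgeR gave 8 lower and 0 higher, beside 6.81% and 6.52% of all tested genes. In 7 of the 9 every double knockout library was below every wild-type library, beside 10.2% of all tested genes. The summed level of this list was 1014 to 1027 against 786 to 822 CPM. As group means, the 10 regulators were at 87.0% of their wild-type sum and the pan-neuronal genes at 87.6%. The excitatory genes were at 78.8% and the inhibitory genes at 39.2%. In double knockout replicates 1, 2 and 3 the regulators were at 89.2%, 88.3% and 83.6%. There the pan-neuronal genes were at 94.1%, 91.3% and 77.5%, so the near match of the means did not hold library by library.

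Among progenitor and glial markers the calls were in the other direction. Of 10 progenitor genes, Hes5, a Notch target, was called higher by edgeR (log2 fold change 0.68), and DESeq2 called 2 higher. At an unadjusted p under 0.05 edgeR gave 5 higher and 0 lower, beside 6.52% and 6.81% of all tested genes. In 4 of the 10 every double knockout library was above every wild-type library, beside 9.3% of all tested genes. The list summed to 2726 to 3086 CPM in wild-type and 3168 to 3737 CPM in double knockout libraries. All 6 oligodendrocyte lineage genes were called higher, the 4 of smallest adjusted p being Sox10, Pdgfra, Olig1 and Gpr17 (log2 fold changes 2.20, 1.89, 1.13 and 1.28), with 68.1 to 69.7 against 133 to 177 CPM summed. Of 16 vascular, immune, meningeal and blood genes 0 were called in edgeR or DESeq2 (0 and 1 at an unadjusted p under 0.05), and their summed level overlapped, at 229 to 264 and 233 to 285 CPM. Double knockout replicate 3 was the library with the lowest pan-neuronal and the highest progenitor sum. It also had the lowest Rbfox1, Rbfox2, Rbfox3, Celf4, Celf5 and Khdrbs2 and the highest Khdrbs3. The Elavl genes did not share this: Elavl3 was higher there than in the other double knockout libraries, and Elavl2 and Elavl4 lay between them. Opposite-strand genes overlap exons of the called markers Dlx6, Hes5, Olig1, Pdgfra and Gpr17 in GENCODE M21, so their counts are uncertain. The part of the marker differences in the levels of the regulators was not tested.

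**Figure D4:**
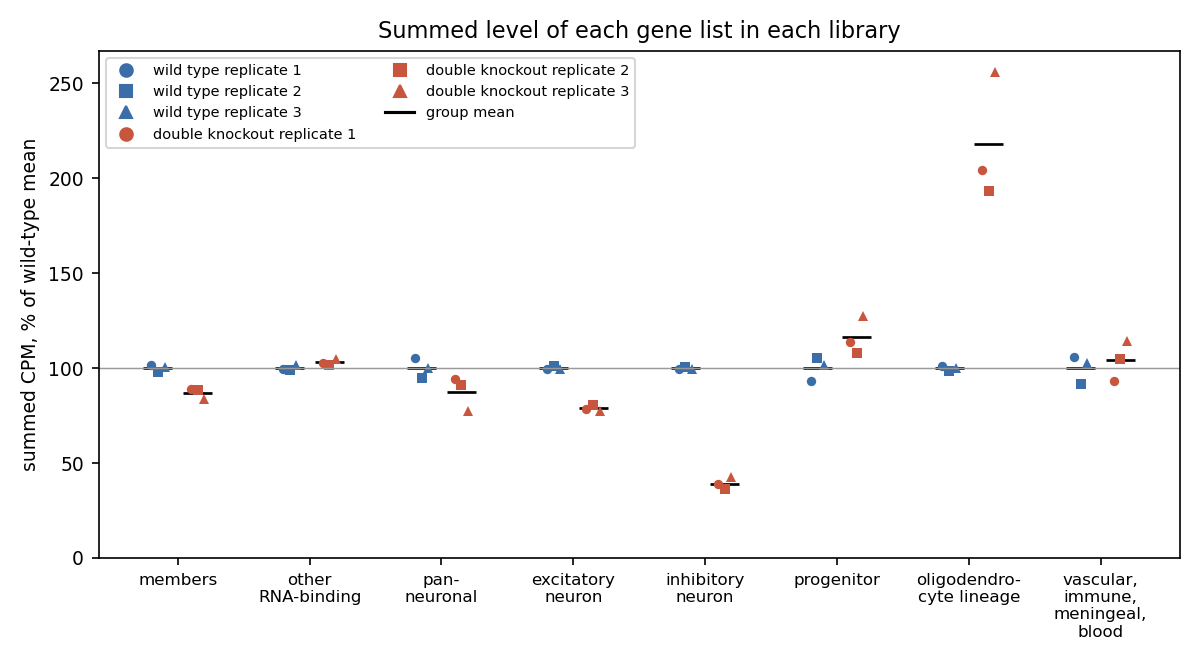
Summed CPM of each gene list in each library as a percentage of its wild-type mean, with a marker per library and a bar at each group mean. The regulators (83.6% to 89.2% in the double knockout) sit beside the pan-neuronal genes (77.5% to 94.1%), far above the inhibitory neuron genes (36.3% to 42.5%).

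The genes whose levels followed the called regulators most closely were sought among the 16485 tested genes averaging 1 CPM or more, by Pearson's r of log2 CPM over the 6 libraries, as a description. For Elavl3 these were Elmo1, Ipo13 and Grik3, with r of 0.9967, 0.996 and 0.9959. Elmo1, which encodes a regulator of the small GTPase RAC, and Grik3, which encodes a kainate receptor subunit, were themselves called lower, with log2 fold changes of -0.75 and -0.98. For Khdrbs2 they were Ngfr, Pgbd5 and Galnt17, with r of 0.999, 0.9978 and 0.9976, of which Galnt17 was called (log2 fold change -0.42). With 6 libraries in 2 groups, values of this size rest largely on the difference between the groups.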

How the data were processed

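Total RNA was sequenced after ribosomal RNA depletion with a stranded kit, per the labels' protocols, so unspliced and non-polyadenylated RNA can be present. The authors deposited raw read counts per gene, 1 column per library. The submitters' processing notes name featureCounts and GRCm39. The aligner, the annotation release, all versions, and how strand and multi-mapped reads were handled are not given in the sources used here. Exon lengths and exon overlaps came from GENCODE M21 and promoter windows from RefSeq, both on GRCm38, so overlaps may differ in the annotation the authors used.

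Genes were filtered with filterByExpr (minimum count 10, minimum total 15), which left 23628, scaled by TMM and tested with edgeR 4.0.16 (quasi-likelihood, prior count 0.125, Benjamini-Hochberg over all tested genes, threshold 0.05) in R 4.3.3. Standard errors are the log2 fold change divided by the square root of F, and 95% intervals use edgeR's total degrees of freedom. GENCODE M21 held 94% of the table's identifiers. A count of 3 equals 0.0432 to 0.052 CPM, a floor for counting error only. Alternatives used DESeq2 1.42.0, limma 3.58.1 (voom), other scalings, filters, a replicate block, a Y-linked covariate and each library left out. The scripts were tested on simulated data.

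Named genes were the 10 regulators, Dlx1 and Dlx2, called genes of each list (at most 4 of a marker list) and a set of 8 other regulators fixed by name, with the 3 most alike genes of each called regulator. Celf6, Gm16105 and Gm49318 were named after their values or overlaps were seen. The members and lists were chosen with earlier results of these data known.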

Additional observations from a re-analysis of the deposited data

How the results depend on the processing

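The direction of all 10 log2 fold changes was kept in all 14 alternatives. The calls were not: of 10 regulators, 2 were called, 1 with total count scaling, 4 with DESeq2, and 0 with the Y-linked covariate. In that edgeR fit 6 of the 10 were at an unadjusted p under 0.05, beside 2567 of all 23628 tested genes. The cause of the changes in calls was not tested. The count of called regulators was 0 to 1 when 1 library was left out, where fewer samples were tested. Over all genes, 634 were called by edgeR, 1162 by DESeq2, 363 with the Y-linked covariate, and 309 to 749 with 1 library left out. Total count scaling called 390 higher and 257 lower, 647 in all, against 317 and 317. Dividing reads by exon length changed the difference in family share to -2.17 percentage points for Rbfox1, -1.94 for Khdrbs2 and 1.94 for Khdrbs3, which follows from the lengths of their exons and makes the difference of Rbfox1 larger than that of Khdrbs2.

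With the replicate number as a block, 690 genes were called and 1 regulator: Rbfox1 passed (edgeR adjusted p 0.038), and Elavl3 (0.0682) and Khdrbs2 (0.0608) did not. No label ties libraries of the same number together. Same-numbered libraries had correlations of -0.0581, 0.00225 and 0.0137 in their deviations from the group means, and 0 of the 3 wild-type libraries correlated best with its own number. The regulators had at least 1023 reads per library, and an effect of depth was not tested. With 3 libraries a group, no exact test can go below 0.1.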
